A study of Mus musculus with 7 samples.

Results

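The insulin-like growth factor (Igf) system of dystrophic mouse soleus is described here through 9 transcripts: the ligand gene Igf1, the receptor genes Igf1r and Igf2r, and the binding protein genes Igfbp2, Igfbp3, Igfbp4, Igfbp5, Igfbp6 and Igfbp7. They were taken by symbol from a table of 29869 genes, all 9 were found in it, and 8 passed the filter on low counts. The soleus is a calf muscle with many slow fibres. RNA was sequenced from whole muscle of 7 mice aged 60 days, 1 library per animal by the titles: 3 labelled mdx/Runx1f/f and 4 labelled mdx. All animals were mdx mice, a model of Duchenne muscular dystrophy in which muscle lacks dystrophin, and the first group also carried floxed alleles of Runx1, a transcription factor gene induced in damaged and denervated muscle. The labels name no Cre driver, no deleted exon and no muscle without mdx. The series title places the comparison as a search for genes that respond to Runx1.

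Igf1 is a secreted growth factor that signals through the tyrosine kinase Igf1r to the kinases PI3K, Akt and mTOR, and in muscle it is known for promoting fibre growth and regeneration. The binding proteins hold Igf1 and Igf2 outside the cell. They can shield the ligands from the receptor or release them when a protease cuts the binding protein. In injured muscle Igf1 is known to be made by macrophages, stromal cells and regenerating fibres as well as supplied by the liver, and a whole-muscle library holds the transcripts of all the local sources together.

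The promoters of 4 members are shown: those of the 3 that rose (Igf1, Igfbp4 and Igfbp6) and that of Igfbp3, which alone among the members held the Runx core letters in this window. Each is the 250 bases before the RefSeq start on the GRCm38.p6 build, 5′ to 3′ on the strand of the gene. Capitals mark 3 motifs. The letters TGTGGT are the core bound by Runx proteins. TATAAA is a core promoter element near the start of many genes. The motif CCAAT is bound by the factor NF-Y. All were read on both strands, so that a motif on the opposite strand appears as its reverse complement. No match overlapped another.
Igf1, chr10:87860861-87861110, plus strand: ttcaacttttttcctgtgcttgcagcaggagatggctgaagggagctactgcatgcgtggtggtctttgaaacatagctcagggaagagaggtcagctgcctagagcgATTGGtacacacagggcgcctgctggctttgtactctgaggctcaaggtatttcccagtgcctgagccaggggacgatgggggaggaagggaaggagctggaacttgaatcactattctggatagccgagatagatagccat
Igfbp4, chr11:99040994-99041243, plus strand: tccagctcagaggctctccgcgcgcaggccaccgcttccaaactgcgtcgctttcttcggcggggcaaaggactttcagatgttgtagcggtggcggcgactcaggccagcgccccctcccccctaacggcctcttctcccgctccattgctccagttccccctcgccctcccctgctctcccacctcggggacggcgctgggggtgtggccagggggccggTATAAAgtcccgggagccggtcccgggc
Igfbp6, chr15:102143936-102144185, plus strand: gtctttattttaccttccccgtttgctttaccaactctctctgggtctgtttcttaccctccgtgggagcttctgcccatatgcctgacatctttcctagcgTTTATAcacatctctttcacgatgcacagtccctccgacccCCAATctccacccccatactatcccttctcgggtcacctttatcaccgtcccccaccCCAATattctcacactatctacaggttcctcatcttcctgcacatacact
Igfbp3, chr11:7213924-7214173, minus strand: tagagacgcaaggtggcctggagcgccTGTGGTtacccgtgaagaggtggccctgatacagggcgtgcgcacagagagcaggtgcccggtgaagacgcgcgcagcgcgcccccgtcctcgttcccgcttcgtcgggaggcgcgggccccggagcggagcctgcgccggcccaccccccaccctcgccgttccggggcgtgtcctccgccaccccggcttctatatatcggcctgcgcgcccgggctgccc
TGTGGT stood 223 bases before the start of Igfbp3 and in none of the windows of the other 8 members, while 14.05% of all 32851 promoter windows of that length held it. TATAAA stood 28 bases before the start of Igfbp4 and, on the opposite strand, 148 bases before that of Igfbp6, against 12.4% of all windows. CCAAT stood 107 and 50 bases before the start of Igfbp6 and, on the opposite strand, 142 bases before that of Igf1, against 33.8% of all windows. A match is a description of letters in these windows, and its absence says nothing about binding elsewhere. GC content was 52.8% in the Igf1 window and 49.6% in that of Igfbp6, and 69.2% in that of Igfbp4 and 73.2% in that of Igfbp3.

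Total counts ran from 16218306 to 20847902 per library. Values below are the authors' normalised read counts, raw counts divided by 1 size factor per library, and tests are by edgeR (quasi-likelihood), with Benjamini-Hochberg correction across the 14033 genes that passed the filter, called at an adjusted p below 0.05. Runx1 itself stood at 919, 925 and 596 normalised read counts in the libraries labelled mdx/Runx1f/f and at 274, 273, 235 and 201 in those labelled mdx (log2 fold change 1.74, SE 0.18, adjusted p = 0.00795 by edgeR). This direction goes against a loss of the transcript in the group with floxed alleles, so groups are called by their labels and every direction rests on them. Gene-level counts also cover exons outside a deleted part, so they need not check the allele. Whether the labels were exchanged between the groups was not tested. The titles, used here, conflict with the description field, which ties most animal numbers to another sample, and with the design text, which gives the group sizes the other way round. With samples joined by the description field, Runx1 had log2 fold change -0.80 (adjusted p = 0.615 by edgeR).

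**Figure D1:**
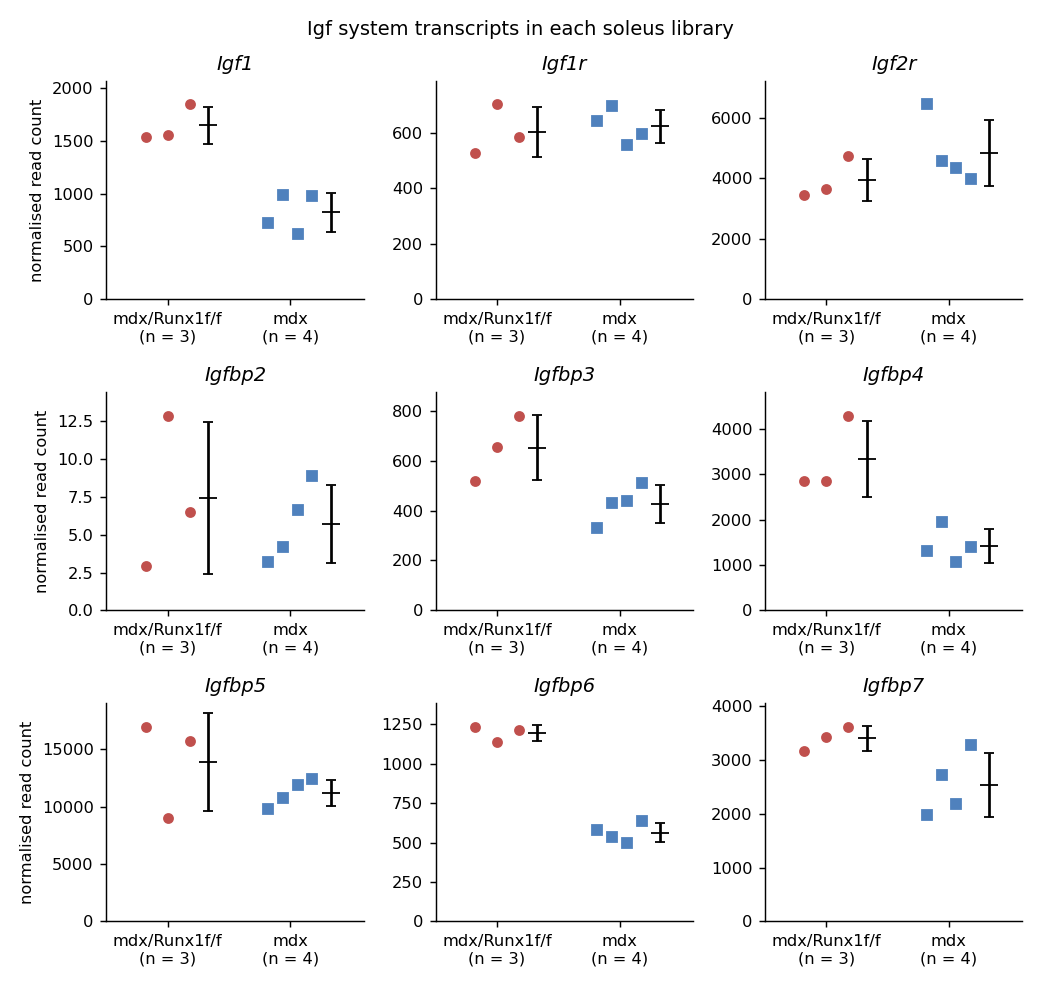
Normalised read count (y axis, from 0) of each of the 9 genes in every library, with circles for mdx/Runx1f/f and squares for mdx and bars for the mean and SD. The groups do not overlap for Igf1, Igfbp3, Igfbp4 and Igfbp6, and overlap for the other 5 genes.

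Of the 8 members tested, 3 rose in the libraries labelled mdx/Runx1f/f (Igf1, Igfbp4 and Igfbp6), 0 fell and 5 were not called. Across all genes tested, 5.1% rose and 1.85% fell. The groups did not overlap in 4 members, the 3 risen genes and Igfbp3, all higher in mdx/Runx1f/f; of all tested genes 13.9% were without overlap and higher, and 13.6% without overlap and lower. The median log2 fold change was 0.52 over the 8 members and -0.0016 over all tested genes. Members were chosen with earlier results of these data known, so these contrasts are description and not independent evidence. limma-voom also called 3 higher and 0 lower, against 5.24% and 2.05% of all genes, and DESeq2 called 4 higher and 0 lower, against 9.67% and 5.71%.

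The ligand gene Igf1 was about 2-fold higher. It stood at 1538, 1563 and 1849 normalised read counts in the libraries labelled mdx/Runx1f/f and at 721, 985, 619 and 982 in those labelled mdx. Every mdx/Runx1f/f library was above every mdx library. The means were 1650 ± 173 (SD, n = 3) in mdx/Runx1f/f and 827 ± 186 (SD, n = 4) in mdx, with log2 fold change 1.00 (SE 0.18, adjusted p = 0.0227 by edgeR). In bulk RNA, more cells of a type that makes Igf1 and more Igf1 RNA per cell cannot be told apart, which holds for all members. Without mdx/Runx1f/f replicate 2 the edgeR adjusted p was 0.0614 and without mdx/Runx1f/f replicate 3 it was 0.0514, with log2 fold changes of 1.04 and 0.90. The exact permutation test, two-sided over the 35 ways to choose 3 of 7 libraries, gave p = 0.0286, the smallest value possible here, for each of Igf1, Igfbp4 and Igfbp6. Counts are per gene, so the Igf1 splice forms were not analysed here.

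Among receptors, Igf1r, the kinase through which Igf1 acts, was not called. Its normalised read counts were 526, 702 and 583 in mdx/Runx1f/f and 641, 698, 558 and 594 in mdx. The groups overlap over most of their range, with means of 604 ± 90.0 (SD, n = 3) in mdx/Runx1f/f and 623 ± 60.6 (SD, n = 4) in mdx. The log2 fold change was -0.037 with a 95% interval of -0.32 to 0.25 (adjusted p = 0.867 by edgeR), and its sign turned under several alternative fits. That interval leaves out a change of the size seen for Igf1. Within each library, the ratio of Igf1 to Igf1r normalised counts was between 2.23 and 3.17 in mdx/Runx1f/f and between 1.11 and 1.65 in mdx, with no overlap. This ratio does not depend on the scaling of libraries, and it was chosen for mention after the values were seen.

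Igf2r, the receptor that takes Igf2 to the lysosome and carries mannose 6-phosphate enzymes there, was not called either. It stood at 3445, 3640 and 4731 normalised read counts in mdx/Runx1f/f and at 6446, 4588, 4351 and 3984 in mdx. The highest library was mdx replicate 1, and the groups overlap. The log2 fold change was -0.29 with a 95% interval of -0.74 to 0.15 (adjusted p = 0.343 by edgeR), and among animals 373 to 375 alone the sign was positive, at 0.19. Airn, the antisense transcript that starts within Igf2r, overlapped no exon of Igf2r in the annotation used.

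Of the 6 binding protein genes 5 were tested, and 2 rose, against 5.1% of all genes tested. Igfbp6, which binds Igf2 with preference over Igf1, had the smallest standard error of the 8 tested members. Its normalised read counts were 1234, 1139 and 1212 in mdx/Runx1f/f and 579, 538, 499 and 636 in mdx. Values within each group were close together, with an SD of 4.15% of the mean in mdx/Runx1f/f and 10.4% in mdx. The means were 1195 ± 49.7 (SD, n = 3) in mdx/Runx1f/f and 563 ± 58.5 (SD, n = 4) in mdx, which gave log2 fold change 1.09 by edgeR (SE 0.10, adjusted p = 0.00795). The call held whichever of the 7 libraries was left out, with log2 fold changes between 1.04 and 1.16 and edgeR adjusted p between 0.0194 and 0.0300.

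Igfbp4, which binds both ligands and is cut by the protease encoded by Pappa, had the largest fold of the 8 tested members. It stood at 2847, 2844 and 4297 normalised read counts in mdx/Runx1f/f and at 1300, 1943, 1062 and 1398 in mdx. All mdx/Runx1f/f libraries were above all mdx libraries, and replicate 3 of mdx/Runx1f/f was the highest. The means were 3329 ± 838 (SD, n = 3) in mdx/Runx1f/f and 1426 ± 373 (SD, n = 4) in mdx, with log2 fold change 1.23 (SE 0.23, adjusted p = 0.0263 by edgeR). It was not called once mdx replicate 3 or 4, or mdx/Runx1f/f replicate 2 or 3, was left out, at edgeR adjusted p of 0.0641, 0.0633, 0.0577 and 0.0511. The log2 fold change stayed between 0.99 and 1.41 over the 7 fits that left out a library.

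Igfbp3, the main carrier of Igf1 in blood, was higher in every mdx/Runx1f/f library without passing the threshold. Its normalised read counts were 520, 655 and 782 in mdx/Runx1f/f and 329, 430, 437 and 512 in mdx. The lowest mdx/Runx1f/f library stood just above the highest mdx library. By edgeR it had log2 fold change 0.62 (SE 0.18, adjusted p = 0.0721). The authors' deposited table gives Igfbp3 a log2 fold change of 0.57 with an adjusted p of 0.0256. A fit with a term for the animal number series gave 0.0229 by edgeR, and DESeq2 gave 0.0300. In contrast, limma-voom gave an adjusted p of 0.0726. Of the 7 edgeR fits that left out a library 0 called it, at adjusted p between 0.0593 and 0.182.

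Igfbp7, a relative of the family with low affinity for Igf1 that is abundant in vessels, had log2 fold change 0.43 (SE 0.18, adjusted p = 0.152 by edgeR). It stood at 3164, 3431 and 3620 normalised read counts in mdx/Runx1f/f and at 1970, 2728, 2175 and 3281 in mdx. The highest mdx library, replicate 4, reached into the range of the other group. Of the exon bases of Igfbp7, 85 of 1209 are shared with Polr2b on the opposite strand, and since the strand setting of the counting is not given, reads there cannot be told apart.

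Igfbp5, a binding protein of regenerating muscle and matrix, had the highest count of all members and differed among the mdx/Runx1f/f libraries. Those stood at 16990, 9023 and 15766 normalised read counts, and the mdx libraries at 9807, 10733, 11876 and 12383. Replicate 2 of mdx/Runx1f/f was below all mdx libraries and the other 2 were above all of them. The log2 fold change was 0.32 with a 95% interval of -0.19 to 0.84 (adjusted p = 0.364 by edgeR). Without that replicate it was 0.56 (adjusted p = 0.112 by edgeR).

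Igfbp2 was near the limit of detection. It had 3, 17 and 6 raw counts in mdx/Runx1f/f and 3, 4, 6 and 9 in mdx and did not pass the filter on low counts. Without that filter edgeR gave it log2 fold change 0.42 (adjusted p = 0.691), and DESeq2 gave 0.40 (adjusted p = 0.777), so no difference was detectable at this depth. Igfbp1, not among the members, was at 0 counts in all 7 libraries.

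**Figure D2:**
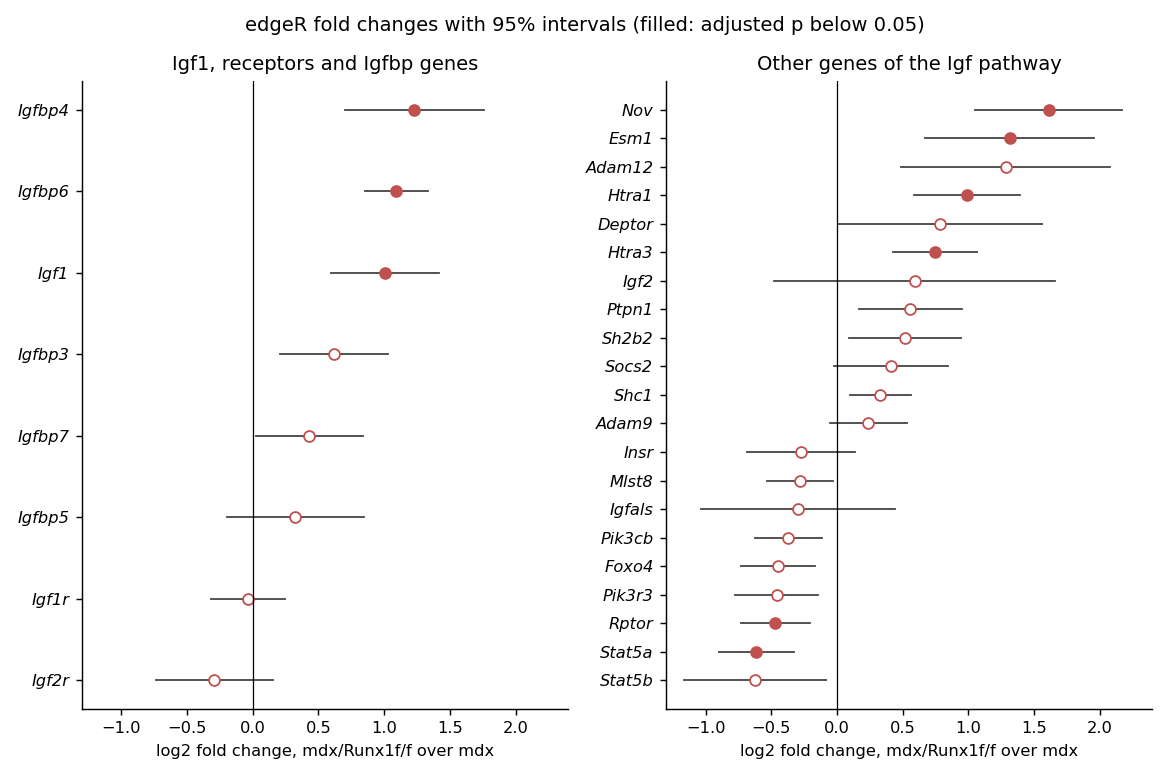
Log2 fold change of mdx/Runx1f/f over mdx (x axis) with its 95% interval for the 8 tested members (left) and the other named genes of the pathway (right), filled where the edgeR adjusted p was below 0.05. Igfbp4, Igfbp6 and Igf1 lie between 1.00 and 1.23, while the intervals of Igf1r, Igf2r and Igfbp5 include 0.

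Per length, Igfbp7, Igfbp5, Igfbp6 and Igfbp4 were above Igf1 and Igf1r in both groups, and Igfbp2 was the lowest member. Levels are normalised read counts per kilobase of exon, with exon lengths from the GENCODE M21 annotation of GRCm38, since the annotation used for counting is not given. Igfbp7 led at 2816 ± 189 (SD, n = 3) per kilobase in mdx/Runx1f/f and 2100 ± 488 (SD, n = 4) in mdx. Igfbp5 followed at 2319 ± 714 (SD, n = 3) in mdx/Runx1f/f and 1865 ± 193 (SD, n = 4) in mdx, and the ranges of these top genes overlap in both groups. Igfbp6 came next in mdx/Runx1f/f at 1075 ± 44.7 per kilobase (SD, n = 3), ahead of Igfbp4 at 848 ± 214 (SD, n = 3), with overlapping ranges, and both were above Igf2r at 443 ± 78.0 (SD, n = 3). In mdx, Igf2r stood at 545 ± 123 (SD, n = 4), ahead of Igfbp6 at 506 ± 52.6 (SD, n = 4) and Igfbp4 at 363 ± 95.01 (SD, n = 4), with overlap between neighbours in that order. Igf1 ranked 7 of 9 in both groups, at 167 ± 17.5 per kilobase (SD, n = 3) in mdx/Runx1f/f and 83.5 ± 18.7 (SD, n = 4) in mdx, behind Igfbp3 at 208 ± 41.8 (SD, n = 3) in mdx/Runx1f/f and 136 ± 24.1 (SD, n = 4) in mdx. The ranges of Igf1 and Igfbp3 overlap in mdx/Runx1f/f and not in mdx. Igf1r ranked 8 at 52.9 ± 7.89 (SD, n = 3) in mdx/Runx1f/f and 54.6 ± 5.31 (SD, n = 4) in mdx, and Igfbp2 last at 5.10 ± 3.45 (SD, n = 3) in mdx/Runx1f/f and 3.91 ± 1.76 (SD, n = 4) in mdx.

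**Figure D3:**
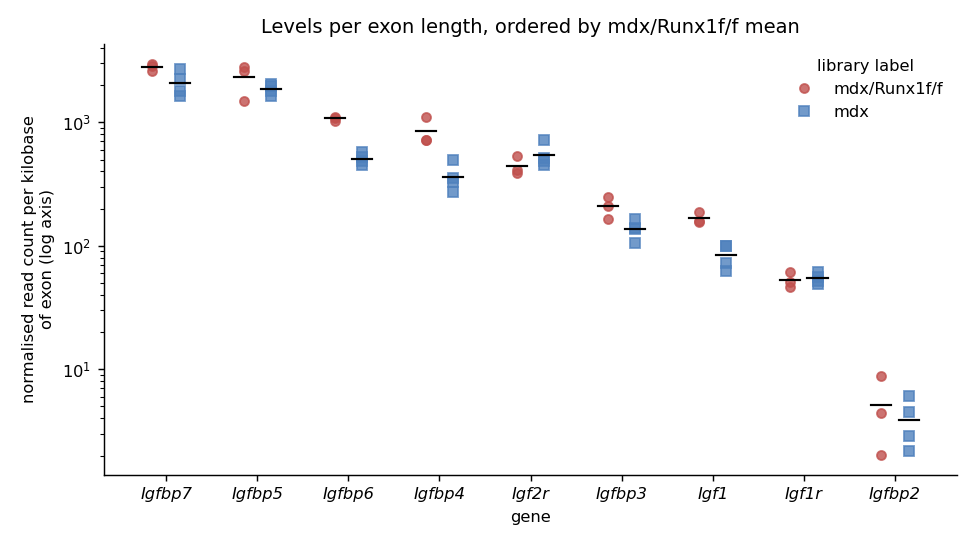
Normalised read count per kilobase of exon (y axis, log scale) of the 9 genes in each library, circles for mdx/Runx1f/f and squares for mdx, with a line at each mean. The genes run from Igfbp7 at 2816 to Igfbp2 at 5.10 in mdx/Runx1f/f, and Igf1 stands above Igf1r in both groups.

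The animal numbers form 2 series, 358 to 363 and 373 to 375, and differences were read within each. Among animals 358 to 363, with 2 libraries in each group, the log2 fold change was 0.88 for Igf1, 0.83 for Igfbp4, 1.10 for Igfbp6 and 0.65 for Igfbp3. Among animals 373 to 375, with 1 mdx/Runx1f/f and 2 mdx libraries, it was 1.21 for Igf1, 1.81 for Igfbp4, 1.10 for Igfbp6 and 0.72 for Igfbp3. All 8 values are positive. The groups do not overlap in these 4 genes, so that sign was set in advance and is no replication. edgeR called 0 of all genes in the first series, with 2669 at an unadjusted p below 0.05, so its adjusted p of 0.149, 0.174, 0.131 and 0.201 for the 4 genes come from a fit that called nothing. The second series has 1 mdx/Runx1f/f library, whose spread can only be taken from the 2 mdx libraries, so its values are given with no call.

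**Figure D4:**
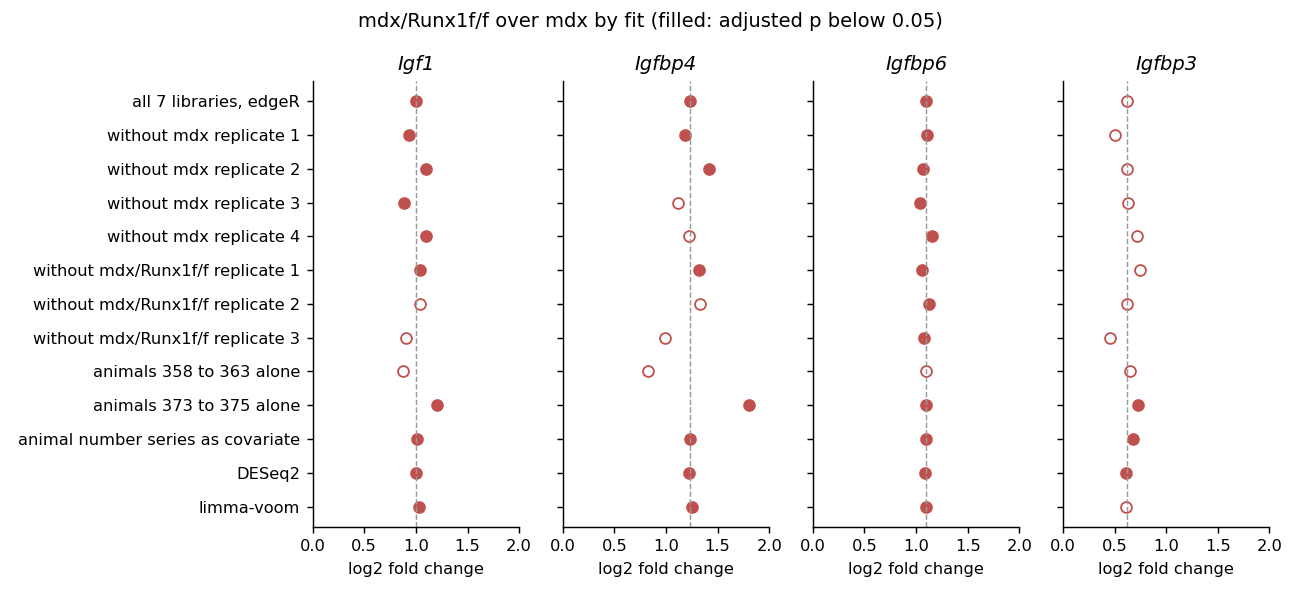
Log2 fold change of mdx/Runx1f/f over mdx (x axis) of Igf1, Igfbp4, Igfbp6 and Igfbp3 in 13 fits (rows), filled where the adjusted p was below 0.05, with a dashed line at the value from all 7 libraries. The 13 rows are the fit of all libraries, the 7 that leave out a library, both animal series, the fit with a series term, DESeq2 and limma-voom. Their points are all positive, a sign set in advance for genes whose groups do not overlap. Other scalings and filters, the replicate block and the grouping by the description field, where Igf1 was at -0.063 and Igfbp6 at -0.16, are not drawn. The filled points of animals 373 to 375 rest on 1 mdx/Runx1f/f library.

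Markers of other cell types differed by list. Only the sums of the progenitor and fibroblast list and of the Schwann cell list were without overlap between the groups. A sum is set mostly by the highest genes of its list. Of 12 markers of fibro-adipogenic progenitors and fibroblasts, the stromal cells of muscle, 9 rose and 0 fell, against 5.1% and 1.85% of all genes. Without mdx/Runx1f/f replicate 2, 5 rose. The summed normalised count of the 12 was between 142295 and 172223 in mdx/Runx1f/f and between 47183 and 74038 in mdx. Collagen genes Col1a1, Col1a2 and Col3a1 made up 75.7% to 81.5% of that sum in mdx/Runx1f/f and 68.7% to 76.1% in mdx. Pdgfra, the receptor gene that marks these progenitors, averaged 1631 ± 56.7 normalised counts in mdx/Runx1f/f (SD, n = 3) and 776 ± 134 in mdx (SD, n = 4), and no marker of the list was at 0 in every library. Igf1 per Pdgfra count was 0.979, 0.953 and 1.10 in mdx/Runx1f/f and 0.842, 1.07, 0.926 and 1.49 in mdx, so that the groups overlap on this scale. Igfbp6 per Pdgfra count was likewise 0.786, 0.694 and 0.720 in mdx/Runx1f/f and 0.677, 0.583, 0.746 and 0.967 in mdx. For Igfbp4 the ratio was 1.81, 1.73 and 2.55 in mdx/Runx1f/f and 1.52, 2.11, 1.59 and 2.13 in mdx. Per 1000 counts of the summed progenitor and fibroblast markers, Igf1 stood at 10.8, 9.56 and 10.7 in mdx/Runx1f/f and at 11.2, 13.7, 13.1 and 13.3 in mdx. On that scale the groups do not overlap and every mdx/Runx1f/f library is the lower. Igfbp4 on the same scale was between 17.4 and 24.9 in mdx/Runx1f/f and between 18.9 and 27.1 in mdx, and Igfbp6 between 6.97 and 8.67 in mdx/Runx1f/f and between 7.495 and 10.6 in mdx, both with overlap. Per 1000 counts of the summed macrophage markers described below, the groups overlap for these genes too. Igf1 stood there at 78.0, 40.3 and 126 in mdx/Runx1f/f and at 49.0, 114, 170 and 215 in mdx. Igfbp4 was between 73.3 and 294 in mdx/Runx1f/f and between 88.4 and 306 in mdx. Igfbp6 was between 29.4 and 82.9 in mdx/Runx1f/f and between 39.4 and 139 in mdx. Overlap after scaling was thus not particular to progenitor markers. These ratios were chosen after the values were seen, and the part of stromal cell or macrophage number in the result was not tested.

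Shares over all genes were 5.1% higher and 1.85% lower by edgeR, 9.67% and 5.71% by DESeq2, and 5.24% and 2.05% by limma-voom. Of 13 macrophage markers 4 rose and 0 fell. DESeq2 called 7 higher, and edgeR called 7 without mdx replicate 1, 3 without mdx/Runx1f/f replicate 3 and 1 without each of the other 5 libraries. Their summed normalised count was 19708, 38774 and 14629 in mdx/Runx1f/f and 14704, 8644, 3634 and 4572 in mdx, with narrow overlap, and none of the markers was at 0 in every library. Lyz2, the highest marker of that sum, was at 7532, 17567 and 5384 in mdx/Runx1f/f and 6554, 3654, 1379 and 1744 in mdx. C1qa, C1qb, C1qc, Csf1r, Cx3cr1, Emr1 and Mrc1 were without overlap and higher, like 13.9% of all tested genes. The other macrophage markers, Lyz2 among them, overlapped. Of 8 Schwann cell markers 3 rose, with sums between 3806 and 4276 in mdx/Runx1f/f and between 2248 and 2935 in mdx, and of 6 adipocyte markers 3 rose, with overlapping sums between 6240 and 9952 in mdx/Runx1f/f and between 5270 and 7448 in mdx. The adipocyte sums were mostly Fabp4, at 5638 to 7586 in mdx/Runx1f/f and 4773 to 7260 in mdx. The risen Adipoq, Plin1 and Cidec were without overlap, at log2 fold changes of 2.26, 2.23 and 2.38 by edgeR. Fabp4, Lep and Retn overlapped. Leaving out a library gave 0 to 4 Schwann cell calls, with 0 without mdx replicate 3 and 1 without replicate 2 or 4 of mdx or replicate 2 of mdx/Runx1f/f. It gave 0 to 4 adipocyte calls, with 0 without mdx replicates 2, 3 or 4 or mdx/Runx1f/f replicate 2 and 1 without mdx/Runx1f/f replicate 3. DESeq2 called 6 Schwann cell and 4 adipocyte markers higher, and limma-voom 3 and 1. Of 10 endothelial markers 1 rose (Vwf) and the sums overlap, at 14544 to 18860 in mdx/Runx1f/f and 12904 to 21248 in mdx. Over all 14033 genes tested, 4135 had an unadjusted p below 0.05 by edgeR. Below that level were 10 of 13 macrophage and 11 of 12 progenitor and fibroblast markers. So were 7 of 8 Schwann cell, 5 of 6 adipocyte and 1 of 10 endothelial markers. Of 10 smooth muscle and pericyte, 10 satellite cell and myoblast and 10 fibre markers edgeR called 0 each. At an unadjusted p below 0.05 were 6, 5 and 2 of them. DESeq2 called 2, 2 and 1 of them higher and 1 fibre marker lower, and the sums of each list overlap between the groups. Their part in the result was not tested.

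**Figure D5:**
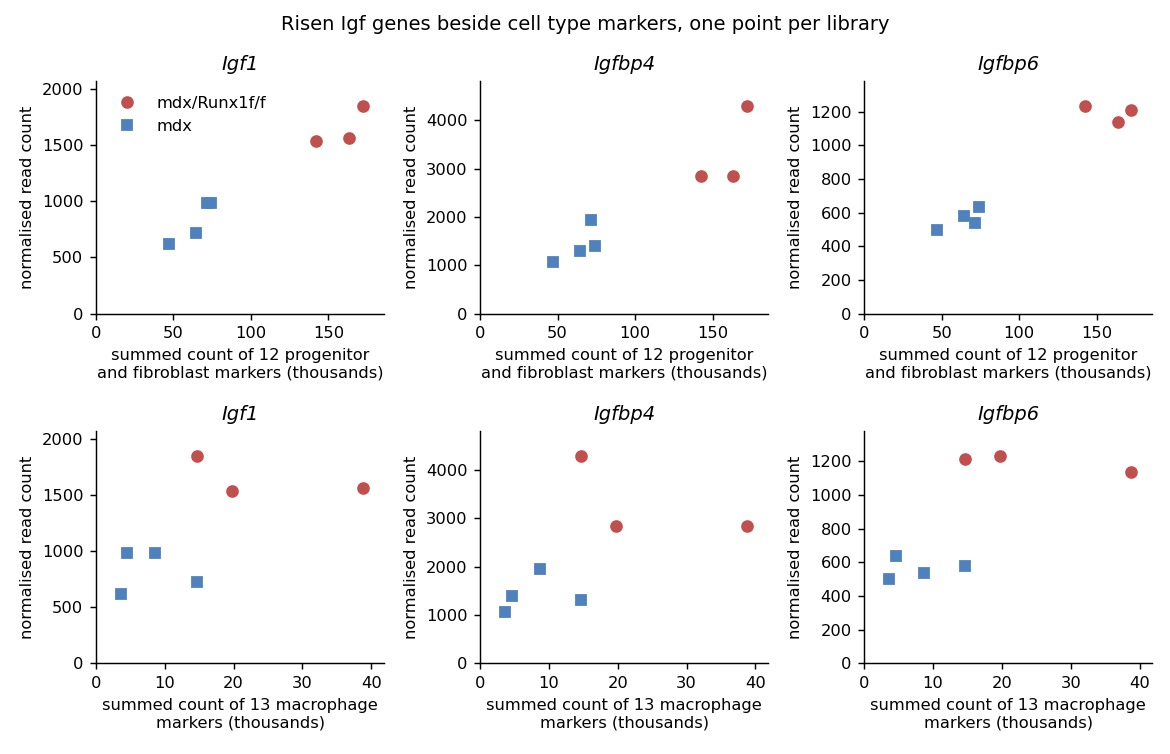
Normalised read count of Igf1, Igfbp4 and Igfbp6 (y axes) against the summed normalised count of 12 progenitor and fibroblast markers (top, in units of 1000) and of 13 macrophage markers (bottom, in units of 1000), 1 point per library. The groups are apart on the top x axis. They overlap narrowly on the bottom one, where the lowest mdx/Runx1f/f library is at 14629 counts and the highest mdx library at 14704. Lyz2 is the highest marker in the bottom sum.

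The genes whose profile over the 7 libraries was most like that of each member were found by the root mean square difference of centred log2 CPM, over 12144 genes whose normalised count averaged 20 or more. For Igf1 they were Icam1 (0.0713), an adhesion molecule gene, Col18a1 (0.0774), a basement membrane collagen gene, and Ebf2 (0.0999), a transcription factor gene. For Igfbp4 they were Olfml1 (0.0659), Fndc1 (0.0975) and Aebp1 (0.123), the last encoding a matrix protein that binds collagen. Those for Igfbp6 were S1pr2 (0.0960), a sphingosine-1-phosphate receptor gene, Sod3 (0.110), the extracellular superoxide dismutase gene, and Matn2 (0.112), a matrilin gene. Igfbp3 was nearest to the collagen gene Col5a3 (0.0712), and Igfbp7 to Cd34 (0.0622), a surface marker of progenitors and endothelium. Igfbp5 was nearest to Hspb8 (0.112), a small heat shock protein gene, and Igf1r to Ell (0.0516), an elongation factor gene. Igf2r was nearest to the transcript AK040741 (0.0837).

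Other genes of the pathway were read from lists of 80 genes in the table, of which 69 were tested, 4 rose and 2 fell. These shares are near the 5.1% and 1.85% of all genes tested, and the median log2 fold change was -0.014. Of the remaining ligands, receptors and carriers 3 of 7 were tested and edgeR called 0, with 0 at an unadjusted p below 0.05 and 0 called by DESeq2. Igf2, the other ligand gene, stood at 6032, 1543 and 2601 normalised read counts in mdx/Runx1f/f and at 1234, 2349, 2476 and 3031 in mdx. The groups overlap, and the high mdx/Runx1f/f replicate 1 set the sign: the log2 fold change was 0.59 (adjusted p = 0.422 by edgeR) with it and -0.13 without it (adjusted p = 0.837 by edgeR). Insr, the insulin receptor gene, had log2 fold change -0.28 (adjusted p = 0.331 by edgeR), and Igfals, which encodes the partner of Igfbp3 in blood, had -0.30 (adjusted p = 0.567 by edgeR). The insulin genes Ins1 and Ins2 were at 0 counts in all libraries.

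Genes with an Igfbp-like domain outside the classical family held most of the calls, with 4 of 10 tested members higher and 0 lower, against 5.1% and 1.85% of all genes. This list too was chosen with earlier results of these data known. Nov, also called Ccn3, which encodes a matricellular protein, stood at 478 ± 134 normalised counts in mdx/Runx1f/f (SD, n = 3) and 157 ± 38.9 in mdx (SD, n = 4), with log2 fold change 1.61 (SE 0.24, adjusted p = 0.0157 by edgeR). Htra1, a secreted serine protease gene that is also on the list of binding protein proteases, had 885 ± 153 in mdx/Runx1f/f (SD, n = 3) and 448 ± 84.7 in mdx (SD, n = 4), with log2 fold change 0.99 (adjusted p = 0.0222 by edgeR). Its relative Htra3 had log2 fold change 0.74 (adjusted p = 0.0268 by edgeR), and Esm1, which encodes a proteoglycan of endothelial cells, 1.31 (adjusted p = 0.0348 by edgeR). Single libraries decided several of these calls: the edgeR adjusted p of Nov was 0.0537 without mdx/Runx1f/f replicate 2, and that of Htra1 was 0.0515 without mdx replicate 2 and 0.0615 without mdx replicate 3. Htra3 was at 0.0639, 0.0632, 0.0563 and 0.0575 without mdx replicates 2 and 4 and mdx/Runx1f/f replicates 1 and 3. Esm1 kept its call only without mdx/Runx1f/f replicate 1, and was between 0.0582 and 0.120 without mdx replicates 1, 2, 3 or 4 or mdx/Runx1f/f replicates 2 or 3.

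Of the proteases that cut binding proteins and their inhibitors, 1 of 7 tested genes rose, Htra1. Of all genes tested 5.1% rose and 13.9% were without overlap and higher. Adam12, a metalloprotease gene of regenerating muscle and stroma, had log2 fold change 1.28 (adjusted p = 0.0606 by edgeR) and groups that do not overlap, at 150 to 341 normalised counts in mdx/Runx1f/f and 62.9 to 132 in mdx. Adam9, a further metalloprotease gene, had log2 fold change 0.24 (adjusted p = 0.245 by edgeR).

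Counts for genes that act inside the cell stand beside 5.1% higher and 1.85% lower over all genes, and lists this short show nothing apart from that background. Over all 14033 genes tested, 4135 had an unadjusted p below 0.05 by edgeR, and DESeq2 called 9.67% higher and 5.71% lower. Of 12 tested receptor substrates, adaptors and brakes edgeR called 0, with 5 at an unadjusted p below 0.05. DESeq2 called 1 higher and 1 lower. Shc1 and Ptpn1, an adaptor gene and the gene of a phosphatase that acts on insulin receptors, had log2 fold changes of 0.33 (adjusted p = 0.0794 by edgeR) and 0.56 (adjusted p = 0.0800 by edgeR), and the adaptor gene Sh2b2 0.52 (adjusted p = 0.112 by edgeR). Of 18 PI3 kinase, Akt and Foxo genes edgeR called 0, with 3 at an unadjusted p below 0.05; DESeq2 called 0 higher and 2 lower. Those nearest the threshold were Foxo4, a transcription factor gene of the Akt pathway, at -0.45 (adjusted p = 0.0647 by edgeR), and the PI3 kinase subunit genes Pik3cb at -0.37 (adjusted p = 0.0771 by edgeR) and Pik3r3 at -0.46 (adjusted p = 0.0775 by edgeR).

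Of 14 genes of the mTOR complexes and translation 1 fell, against 1.85% of all genes tested, of which 13.6% were without overlap and lower. That gene was Rptor, which encodes the scaffold of mTOR complex 1. It stood at 546 to 670 normalised counts in mdx/Runx1f/f and 747 to 930.5 in mdx, with no overlap, and had log2 fold change -0.47 (SE 0.11, adjusted p = 0.0494 by edgeR). That call sat at the threshold: it was lost with DESeq2 size factors in edgeR (adjusted p = 0.0502) and in 6 of 7 fits that left out a library, where only the fit without mdx/Runx1f/f replicate 3 kept it (adjusted p = 0.0430 by edgeR; the other 6 lay between 0.0696 and 0.159). The complex subunit gene Mlst8 had log2 fold change -0.28 (adjusted p = 0.132 by edgeR) and the inhibitor gene Deptor 0.79 (adjusted p = 0.165 by edgeR).

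Growth hormone drives Igf1 transcription through the factors Stat5a and Stat5b. Of 6 tested genes of that axis 1 fell, against 1.85% of all genes tested. It was Stat5a, at 450, 388 and 388 normalised counts in mdx/Runx1f/f and 623, 541, 729 and 623 in mdx. The groups did not overlap, and of all genes tested 13.6% were without overlap and lower. Its log2 fold change was -0.61 by edgeR (SE 0.12, adjusted p = 0.0313). The call was kept without mdx replicate 2 or mdx/Runx1f/f replicate 1, and without each of the other 5 libraries the edgeR adjusted p lay between 0.0505 and 0.103. Stat5b had log2 fold change -0.62 (adjusted p = 0.126 by edgeR), and Socs2, a feedback inhibitor gene of growth hormone signalling, 0.41 (adjusted p = 0.185 by edgeR). The protein and phosphorylation states through which these genes act were not measured.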

How the data were processed

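Whole soleus RNA-seq of 7 libraries was analysed from 1 table. Reads were processed by the authors with TopHat2 2.0.10, HTSeq and DESeq2 1.6.3 on mm9, per the submitters' processing notes; annotation and strand setting: not given in the sources used here. The deposited table holds raw counts per gene and a second block of signal values, which are those counts divided by 1 size factor per library (exact for 100% of genes within 1e-6). It also holds the authors' deposited log2 fold changes and p-values. Depth was 16218306 to 20847902 counts per library, and counts limit the precision of low genes such as Igfbp2.

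Groups followed the sample titles. Raw counts were tested with edgeR 4.0.16 (quasi-likelihood, TMM, filterByExpr, 14033 genes, Benjamini-Hochberg) in R 4.3.3. DESeq2 1.42.0, limma 3.58.1 (voom), other scalings and filters, left-out libraries, a replicate block and the animal number series were alternatives. Single members also had an exact permutation test, with no adjustment over the members. Levels per kilobase used GENCODE M21 exon unions (GRCm38, not the authors' build). Promoters matched all 9 members by symbol. Members and lists were chosen with earlier results of these data known. Named genes were the members, Runx1, every called gene of a pathway list and up to 3 per list with the smallest p, and up to 3 genes nearest to each member in profile.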

Additional observations from a re-analysis of the deposited data

How the results depend on the processing

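edgeR called 715 genes higher and 260 lower in mdx/Runx1f/f. These counts were 1469 and 867 with DESeq2, 1246 and 582 with a term for the animal number series, 1361 and 440 in animals 373 to 375 alone, and 0 and 0 in animals 358 to 363 alone (2669 at an unadjusted p below 0.05). Library size alone gave 703 higher and 131 lower, so that 84.3% of calls were higher against 73.3%, and moved the median log2 fold change of all genes by 0.106. Leaving out a library gave 173 to 641 higher and 17 to 209 lower. Members called higher were 3, and 1 to 3 without a library, 0 in animals 358 to 363 and 0 when samples were joined by the description field, which left 5 genes higher and 3 lower. Under that grouping the log2 fold change was -0.063 for Igf1, -0.16 for Igfbp6 and -0.80 for Runx1. Pathway genes called higher were 7 with DESeq2, 8 in animals 373 to 375, 0 in animals 358 to 363 and 1 to 3 without a library. Those called lower were 6 with DESeq2, 4 with that term, 0 in animals 358 to 363, 0 to 1 without a library, and 1 each with DESeq2 size factors, library size, no filter, a filter of 10 CPM and the replicate block. Runx1 stood at 1.77 in animals 358 to 363. The sign turned for Igf1r at 0.071 with library size, 0.014 with the 10 CPM filter, 0.022 in animals 373 to 375 and -0.16 to 0.045 without a library. It also turned in animals 373 to 375 for Igf2r (0.19), Igf2 (-0.079) and Deptor (-0.0058), and Igf2 ran from -0.13 to 0.94 without a library. The cause was not tested.

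Whether the title numbers pair the samples cannot be settled from so few libraries. Deviations of same-numbered libraries correlated at -0.0069, 0.24 and 0.28. Those of libraries with different numbers ran from -0.46 to 0.51, the highest for mdx/Runx1f/f replicate 2 with mdx replicate 1. With the title number as a replicate block 240 genes were higher and 80 lower. The edgeR adjusted p was then 0.0535 for Igf1, 0.0782 for Igfbp4, 0.0467 for Igfbp6 and 0.0467 for Igfbp3.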
